A study of Drosophila melanogaster with 8 samples.

Results

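The immune effector, recognition and Turandot genes of the fly were followed in pupal retinas that carry the sev14 allele of sevenless and in control retinas. The 46 members were taken by symbol from the 15127 genes of the deposited table. They comprise 14 antimicrobial peptide genes (the attacins AttA to AttD, the cecropins, the diptericins, Def, Dro, Mtk and edin), 5 genes of the Drosomycin family, 7 genes of immune-induced peptides named IM, 13 peptidoglycan recognition protein (PGRP) genes and 7 Turandot genes. For 7 of them the reference gene table gives another current symbol: IM1, IM2 and IM3 are now BomS1, BomS2 and BomS3, IM23 is BomBc1, IM4 and IM14 are Dso1 and Dso2, and Dpt is DptA. No deposited symbol starts with Bom, so bomanins listed there under other names lie outside the chosen set. A member was tested where its mean over the 8 libraries was at least 5 normalized counts, which 36 of the 46 reached. Just inside this limit were TotX with a mean of 5.07, CecA1 with 7.32 and PGRP-SC1a with 9.09. They reached it through sev14, with means of 10.1, 11.6 and 16.3 there against 0, 3.01 and 1.85 in w1118. Just outside it were TotM with 4.10, Drsl6 with 3.54 and Drsl2 with 2.55.

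The sev14 stock carries sev14 with a w allele that the labels do not specify, and the control stock is w1118, written so here without brackets. Sevenless is the receptor through which the R7 photoreceptor is induced, and the series concerns transcription that depends on R7. Each genotype had 4 libraries, named S1, S2, S4 and S5 for sev14 and W1, W2, W5 and W6 for w1118. All came from female retinas dissected at 40 h after puparium formation, with 10 to 20 retinas prepared per genotype. No infection, wounding or other immune challenge is named in the labels. The labels do not tie libraries to separate dissections or cultures. The p-values thus rest on library-to-library spread, some of which may be technical. Genotype and stock cannot be told apart.

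In flies, peptidoglycan recognition proteins bind fragments of bacterial cell wall. Diaminopimelic acid-type peptidoglycan acts through PGRP-LC and PGRP-LE on the Imd pathway, whose transcription factor Relish drives cecropins, diptericins and attacins together with the amidases that damp the response. Lysine-type peptidoglycan and fungal products act through circulating sensors and a protease cascade on the Toll pathway, whose factors Dif and dorsal drive Drosomycin, the bomanins and the Daisho peptides. Turandot genes encode small secreted stress proteins that are induced by JAK-STAT and MAP kinase signalling. The fat body is the main source of these peptides in the circulation, and haemocytes, trachea and other epithelia can make some of them locally.

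Between 13755813 and 19317307 reads were recovered per library, and 10235 to 12025 genes were above 0. Transcripts of 9 ribosomal RNA pseudogenes took 12.5% of the reads of S2 and 10.1% of S5, against 0.528% to 3.67% in the other libraries. The targeted gene sev averaged 274 ± 137 normalized counts in sev14 and 298 ± 58.3 in w1118 (SD, n = 4 each), with overlapping libraries and an exact two-sided permutation p of 0.629. The level of sev therefore does not check the genotype labels. The w gene averaged 6124 ± 1179 in sev14 and 10.4 ± 3.88 in w1118, a complete separation that gave the smallest exact two-sided permutation p this design allows, 0.0286. Normalized counts are not divided by gene length, so levels are compared within a gene only.

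Of the 36 tested members, 4 rose in sev14 and 2 fell. TotF and CecB, which had 1 read and no read over all control libraries, rose along with Drsl5 and PGRP-LB, whereas AttD and IM3 fell. The test was limma on log2(normalized count + 1) over 10192 genes, with Benjamini-Hochberg adjusted p under 0.05 as the threshold, and all differences are sev14 minus w1118 on that scale, where changes of genes with low counts come out too small. The 4 that rose are 11.1% of the tested members, against 2.38% of all genes tested, and the 2 that fell are 5.56%, against 1.82%. With edgeR's quasi-likelihood test, 5 members were higher and 2 lower (background 2.24% and 1.53%). With DESeq2, 8 were higher and 6 lower (background 4.94% and 3.38%). In the authors' deposited table, 8 of the 36 were higher and 5 lower (background 4.03% and 2.75%). That background is over 13522 genes without the limit of 5 on the mean, so it is not on the same footing as the members. Scaling by total reads shifted the median of all genes by -0.14 and turned the split of 243 higher and 186 lower genes into 178 higher and 268 lower, with 4 members higher and 3 lower.

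Every sev14 library lay above every w1118 library for 6 tested members, CecB, Drsl5, PGRP-LB, PGRP-SD, TotF and TotX, which is 16.7% against a background of 5.92%. Every sev14 library lay below every w1118 library for 5, AttD, Drs, IM3, IM4 and PGRP-LE, which is 13.9% against 5.18%. CecB, TotF and TotX reached the limit for testing only through sev14, and IM3 and IM4 only through w1118. At an unadjusted limma p under 0.05 there were 15 of 36 members, and 16.7% of all genes. The difference was positive for 24 members and negative for 12, with a median of 0.42, against 0.00 over all genes tested. By role the median was 1.08 for 13 antimicrobial peptides, 0.08 for 2 Drosomycin family genes, -3.04 for 5 IM peptides, 0.41 for 11 PGRPs and 0.42 for 5 Turandot genes. AttC, CecA1, edin and PGRP-SC1a also reached the limit only through sev14, and all 5 IM peptides only through w1118. The signs of such members were largely fixed by the limit. The sign split and the role medians therefore give no independent support for a direction. In these bulk samples, fewer cells of a type and less RNA per cell cannot be told apart.

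**Figure D1:**
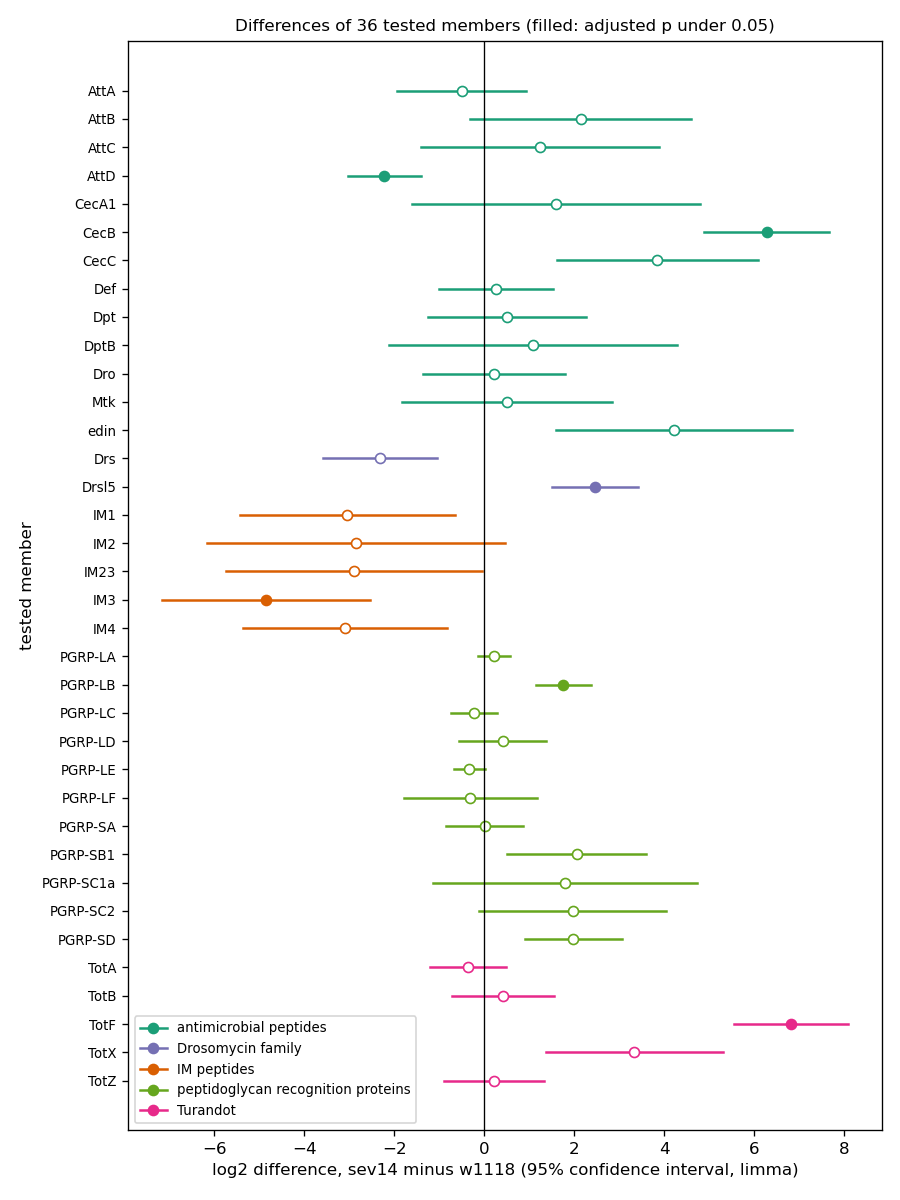
The 36 tested members down the page, coloured by role, with the limma log2 difference of sev14 minus w1118 on the horizontal axis as points and 95% confidence intervals as lines; filled points have an adjusted p under 0.05. TotF at 6.81 and CecB at 6.28 lie farthest to the right, and IM3 at -4.84 lies farthest to the left. The 5 IM peptides are all below 0, and all reached the limit for testing only through w1118.

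Among the recognition genes, PGRP-LB rose in sev14. PGRP-LB is an amidase that cleaves diaminopimelic acid-type peptidoglycan and so limits Imd signalling. It lies on 3R from 11452849 to 11460552 (FBgn0037906). Its normalized counts were 586, 264, 370 and 255 in S1, S2, S4 and S5, against 111, 83.4, 111 and 107 in W1, W2, W5 and W6. The lowest sev14 library was above the highest control, and the controls lay close together. The means were 369 ± 154 in sev14 and 103 ± 13.1 in w1118 (SD, n = 4 each), a ratio of 3.58 and a log2 difference of 1.76 ± 0.27 (SE; limma adjusted p = 0.00553). PGRP-LB overlaps CG17230 on the opposite strand, whose means were 379 in sev14 and 384 in w1118.

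PGRP-SD, a secreted protein with a role in bacterial sensing, lay at the threshold. It is on 3L from 7651180 to 7651900 (FBgn0035806). Its normalized counts were 442, 242, 90.7 and 164 in S1, S2, S4 and S5, against 68.2, 76.4, 39.2 and 30.0 in W1, W2, W5 and W6. The genotypes did not overlap, but S4 came close to W2. The log2 difference was 1.98 ± 0.48 (SE), with an adjusted p of 0.0503 by limma, 0.0459 by edgeR and 0.000666 by DESeq2. On leaving out 1 library, the limma adjusted p was 0.0184 without S4 and between 0.0685 and 0.131 without each of the others. Without S2 and S5 it was 0.192. The means were 235 ± 151 in sev14 and 53.4 ± 22.3 in w1118 (SD, n = 4 each). CG32373 overlaps it on the same strand, with means of 48.2 in sev14 and 15.3 in w1118, so part of either signal could belong to the other gene.

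PGRP-SB1, a secreted amidase induced by the Imd pathway, had 309, 154, 36.8 and 47.7 normalized counts in S1, S2, S4 and S5, against 44.3, 23.1, 10.1 and 23.3 in W1, W2, W5 and W6. S1 and S2 stood apart from every other library, and S4 lay within the control range. The log2 difference of 2.06 ± 0.69 (SE) had an adjusted p of 0.150 by limma, 0.107 by edgeR and 0.00851 by DESeq2. The amidase PGRP-SC2 had 51.6, 25.1, 13.9 and 25.8 in the sev14 libraries and 0, 24.1, 11.2 and 6.66 in the control libraries, which overlap (log2 difference 1.97, limma adjusted p = 0.329). PGRP-SC1a and PGRP-SC1b are near-identical copies, and the split of reads between them is uncertain. PGRP-SC1a had 41.9, 20.9, 2.45 and 0 in sev14 and 0, 4.02, 3.36 and 0 in w1118 (log2 difference 1.80, limma adjusted p = 0.573). PGRP-SC1b was not tested. It had 8.60 in S1, 7.63 in S5 and 0 in S2 and S4, against 0 in all 4 control libraries. These are 16 reads against 0, a ratio of 5.25 when the sev14 mean is set against a floor of 3 reads over the control genotype. That ratio carries no error on the sev14 side.

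The receptors that act upstream of the Imd pathway gave no call. PGRP-LC, its transmembrane receptor, had 460, 327, 219 and 450 normalized counts in S1, S2, S4 and S5, against 417, 447, 396 and 372 in W1, W2, W5 and W6. The genotypes overlapped (log2 difference -0.22, limma adjusted p = 0.723). PGRP-LE, which senses peptidoglycan fragments inside cells, had 244, 223, 272 and 205 in sev14 and 284, 297, 277 and 322 in w1118. Every sev14 library was below every control, by a log2 difference of only -0.33 that did not pass (limma adjusted p = 0.333). PGRP-LF, an inhibitory relative of PGRP-LC, had a difference of -0.30 (limma adjusted p = 0.886). PGRP-SA, the circulating sensor of the Toll pathway, had 139, 63.9, 241 and 226 in sev14 and 125, 153, 171 and 144 in w1118. Its sev14 libraries lay on both sides of the control range (log2 difference 0.01, limma adjusted p = 0.995).

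PGRP-LA, a membrane-bound PGRP thought not to bind peptidoglycan, had the highest mean count of the 13 PGRP genes. Its normalized counts were 1715, 1409, 1959 and 1283 in S1, S2, S4 and S5, against 1410, 1177, 1251 and 1587 in W1, W2, W5 and W6, and the genotypes overlapped (log2 difference 0.22, limma adjusted p = 0.568). PGRP-LD had a difference of 0.41 (limma adjusted p = 0.722). PGRP-SB2 was below the limit for testing, with at most 4.19 in a sev14 library and 6.03 in a control library. In all, 8 of the 11 tested PGRPs had positive differences and 3 had negative ones. Among the 8, PGRP-SC1a reached the limit for testing only through sev14.

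The cecropins, helical peptides that disrupt bacterial membranes, lie together within 6.07 kb of 3R, where CecB rose in sev14. CecB (FBgn0000278, 3R from 30213315 to 30213797) had 132, 89.0, 33.5 and 87.8 normalized counts in S1, S2, S4 and S5, against 0 in all 4 control libraries. These were 341 reads in sev14 and 0 in w1118, a ratio of 111 with a floor of 3 reads over the control genotype. The fitted log2 difference was 6.28 ± 0.62 (SE; limma adjusted p = 0.000358), a value that depends on the pseudocount. CecB passed under all 19 alternative settings.

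CecC (FBgn0000279, 3R from 30216484 to 30216938) had 210, 166, 21.3 and 109 normalized counts in S1, S2, S4 and S5, against 22.1, 10.0, 6.72 and 0 in W1, W2, W5 and W6. S1, S2 and S5 were above every control, and S4 was just below W1. The means were 127 ± 81.4 in sev14 and 9.73 ± 9.27 in w1118 (SD, n = 4 each), a ratio of 13.01. The log2 difference of 3.85 ± 1.00 (SE) had an adjusted p of 0.0626 by limma, 0.0647 by edgeR and 0.000438 by DESeq2. Leaving out 1 library gave a limma adjusted p of 0.0298 without S4 and of 0.0590 to 0.188 without each of the others. Without S2 and S5 it was 0.283. CecA1 and CecA2 are near-identical copies. CecA1 had 21.5, 24.1, 0 and 0.954 in sev14 and 0, 12.1, 0 and 0 in w1118 (limma adjusted p = 0.662). CecA2, not tested, had 10.7, 3.14, 0 and 0 in sev14 and 2.01 in W2 alone among the controls. Summed over the 4 cecropins, the libraries held 374, 283, 54.8 and 198 in sev14 and 22.1, 24.1, 6.72 and 0 in w1118. All sev14 sums were above all controls, but for S4 only through CecB, with 33.5. Without CecB, S4 held the 21.3 of CecC alone, below the sums of W1 and W2.

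AttD fell in sev14. It encodes the attacin that lacks a signal peptide. AttD (FBgn0038530, 3R from 17625268 to 17626086) had 50.5, 20.9, 25.3 and 33.4 normalized counts in S1, S2, S4 and S5, against 179, 212, 103 and 118 in W1, W2, W5 and W6. The highest sev14 library was below the lowest control. The means were 32.5 ± 13.04 in sev14 and 153 ± 51.3 in w1118 (SD, n = 4 each), 4.70-fold lower in sev14, with a log2 difference of -2.21 ± 0.36 (SE; limma adjusted p = 0.00688). Without S2 and S5, the libraries richest in ribosomal RNA pseudogene reads, the log2 difference was -2.001 and the limma adjusted p 0.0590, with 6 libraries in the fit.

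None of the secreted attacins was called. AttA had 79.5, 75.4, 9.81 and 23.9 normalized counts in the sev14 libraries and 67.3, 32.2, 70.6 and 40.0 in the control libraries (log2 difference -0.50, limma adjusted p = 0.786). AttB had 92.4, 93.2, 11.4 and 42.9 in sev14 and 0, 26.1, 14.6 and 28.9 in w1118 (log2 difference 2.14, limma adjusted p = 0.375). AttA and AttB are near-identical neighbours, and the split of reads between them is uncertain. AttC had 44.1, 37.7, 0 and 10.5 in sev14 and 7.97, 4.02, 5.60 and 1.11 in w1118 (log2 difference 1.25, limma adjusted p = 0.685). In AttA, AttB and AttC the values of S4 were lower than those of S1, S2 and S5.

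Def, the insect defensin that acts on Gram-positive bacteria, had the highest mean count of the 14 antimicrobial peptide genes. It had 648, 454, 104 and 591 normalized counts in S1, S2, S4 and S5, against 296, 550, 331 and 159 in W1, W2, W5 and W6. The sev14 libraries spanned the whole control range (log2 difference 0.27, limma adjusted p = 0.881). Dro, which encodes the glycosylated peptide drosocin, had 203, 159, 16.4 and 47.7 in sev14 and 107, 56.3, 50.4 and 46.6 in w1118 (limma adjusted p = 0.933). The diptericin gene Dpt had 88.1, 177, 13.9 and 24.8 in sev14 and 53.1, 28.1, 13.4 and 63.3 in w1118 (limma adjusted p = 0.825). For both genes S1 and S2 lay above every control, and S4 lay near or below the lowest control. DptB had 59.1, 29.3, 0 and 3.82 in sev14 and 22.1, 8.04, 0 and 1.11 in w1118 (limma adjusted p = 0.794). Mtk, the antifungal metchnikowin, had 39.8, 51.3, 6.54 and 2.86 in sev14 and 34.5, 5.02, 2.24 and 21.1 in w1118 (limma adjusted p = 0.880).

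The gene edin, named for its elevation during infection, had 103, 61.8, 6.54 and 48.7 normalized counts in S1, S2, S4 and S5, against 19.0 in W5 and 0 in W1, W2 and W6. S4 was below W5, and the other sev14 libraries were above it. The log2 difference of 4.22 had an adjusted p of 0.0827 by limma, 0.249 by edgeR and 0.107 by DESeq2. By limma it was 0.0419 without S4, 0.0224 without W5, and between 0.159 and 0.232 without each of the other libraries. The gene lies within Oatp74D on the same strand, whose means were 4783 in sev14 and 3292 in w1118, so reads of that much more abundant gene could enter its count.

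**Figure D2:**
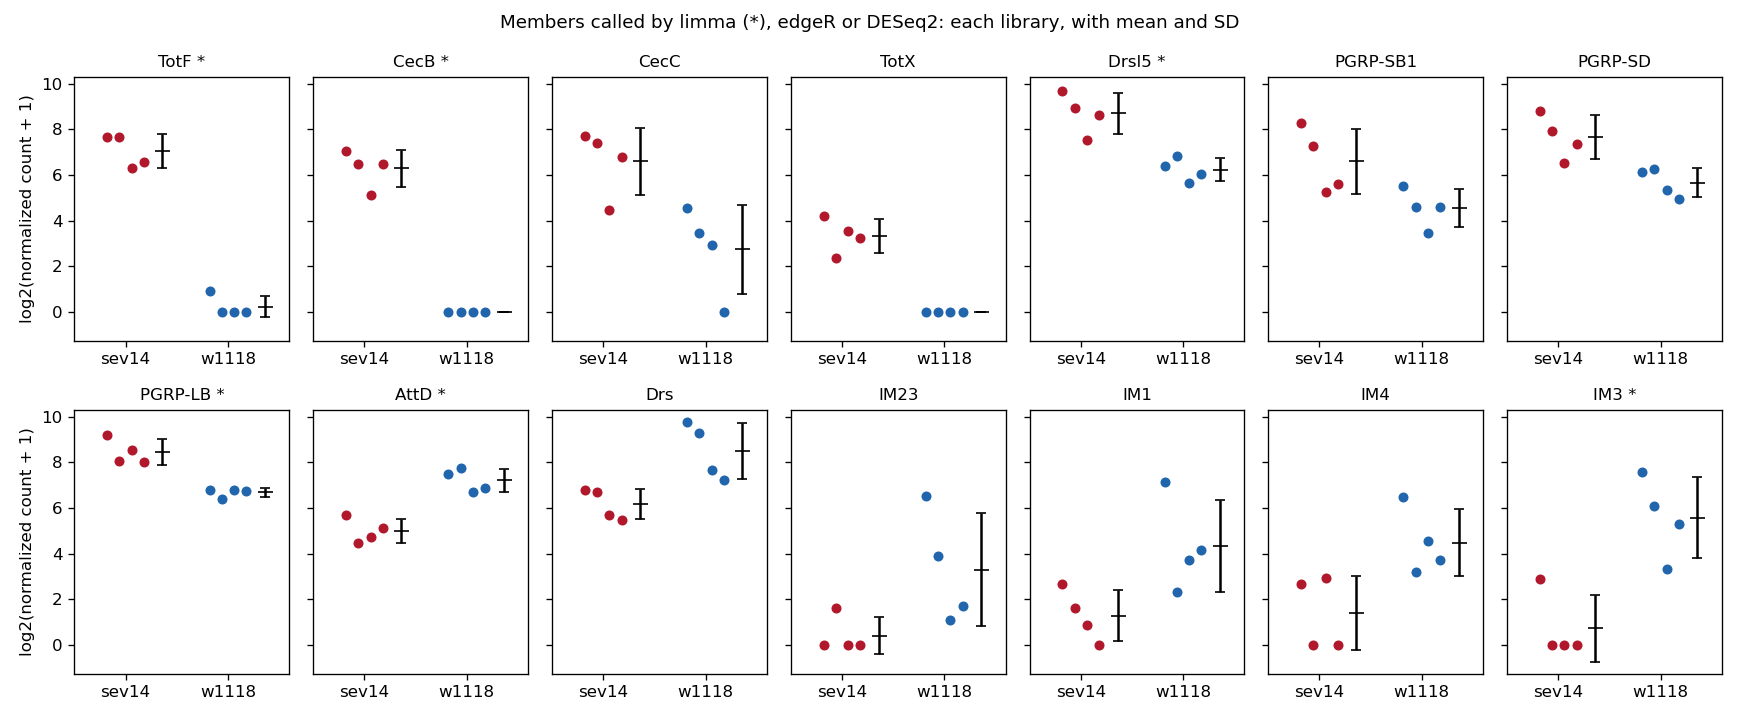
Each library's log2(normalized count + 1) for the 14 members that limma (asterisk), edgeR or DESeq2 called, sev14 left and w1118 right, with the mean and SD beside the points. TotF and CecB sit near or at 0 in the controls and between 33.5 and 204 normalized counts in sev14, while IM3 is at 0 in 3 of 4 sev14 libraries.

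The 2 tested genes of the Drosomycin family had differences of opposite sign. Drsl5, a Drosomycin-like peptide gene, rose in sev14. Drsl5 (FBgn0035434, 3L from 3316781 to 3317144) had 822, 493, 185 and 388 normalized counts in S1, S2, S4 and S5, against 84.1, 112, 49.3 and 64.4 in W1, W2, W5 and W6. All sev14 libraries were above all controls. The means were 472 ± 266 in sev14 and 77.3 ± 26.9 in w1118 (SD, n = 4 each), a ratio of 6.11 and a log2 difference of 2.47 ± 0.43 (SE; limma adjusted p = 0.00952). Without S2 and S5 the log2 difference was 2.38 and the limma adjusted p 0.0871.

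Drs, the antifungal peptide Drosomycin and the usual readout of Toll signalling, had a negative difference close to the threshold. Drs (FBgn0010381, 3L from 3369556 to 3369942) had 109, 104, 50.7 and 43.9 normalized counts in S1, S2, S4 and S5, against 862, 623, 199 and 149 in W1, W2, W5 and W6. The highest sev14 library was below the lowest control, and W1 and W2 were well above W5 and W6. The means were 76.7 ± 34.1 in sev14 and 458 ± 343 in w1118 (SD, n = 4 each). The log2 difference of -2.31 ± 0.57 (SE) had an adjusted p of 0.0514 by limma, 0.0363 by edgeR and 8.38e-05 by DESeq2. On leaving out 1 library the limma adjusted p was 0.0276 without W6 and between 0.0584 and 0.133 without each of the others, and it was 0.178 without S2 and S5.

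The other Drosomycin-like genes were too low to test. Drsl6 had 6.45 in S1 and 0 in S2, S4 and S5, against 11.5, 7.03, 3.36 and 0 in W1, W2, W5 and W6. Drsl2 had 3.14 in S2 alone in sev14, against 15.1 in W1 and 2.24 in W5. Drsl3 had 2.09 in S2 and 0 in every other library.

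Of 5 tested IM peptides, limma called 1, IM3, which fell, edgeR called 0 and DESeq2 4. At an unadjusted limma p under 0.05 there were 4 of the 5, against 16.7% of all genes tested. All 5 reached the limit for testing only through w1118, with sev14 means of 0.523 to 2.98. Their negative sign was thus largely fixed by that limit, and these counts give no independent support for a fall. IM1, IM2, IM3 and IM23 are bomanins, short secreted peptides under Toll control, and lie within 6.03 kb of 2R. IM3 (FBgn0040736, 2R from 18387895 to 18388734) had 6.45, 0, 0 and 0 normalized counts in S1, S2, S4 and S5, against 190, 67.3, 8.96 and 37.7 in W1, W2, W5 and W6. All sev14 libraries were below all controls, which spread widely. The means were 1.61 ± 3.22 in sev14 and 76.1 ± 79.8 in w1118 (SD, n = 4 each), with a log2 difference of -4.84 ± 1.04 (SE) and adjusted p values of 0.0277 by limma, 0.0558 by edgeR and 0.000243 by DESeq2. The authors' deposited table did not call IM3 (adjusted p = 0.0664 there) and called IM1, IM23 and IM4 lower. The limma call was lost on leaving out S2 (adjusted p = 0.0544), S4 (0.0552), S5 (0.0636), W1 (0.0907), W2 (0.0963) or W6 (0.0704). The log2 difference was then -4.60 without S2, S4 or S5, -4.17 without W1, -4.67 without W2 and -4.94 without W6.

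IM1 had 5.37, 2.09, 0.818 and 0 normalized counts in sev14, against 138, 4.02, 12.3 and 16.6 in w1118 (log2 difference -3.04, adjusted p = 0.170 by limma and 0.00722 by DESeq2). IM23 had 2.09 in S2 and 0 in S1, S4 and S5, against 90.3, 14.1, 1.12 and 2.22 in w1118 (log2 difference -2.89, adjusted p = 0.291 by limma and 0.0167 by DESeq2). It had 2 reads in all of sev14 and 119 in all of w1118, of which 102 were in W1. IM2 had 4.30 in S1 and 0 in S2, S4 and S5, against 176, 11.1, 0 and 5.55 in w1118 (log2 difference -2.84, limma adjusted p = 0.388), and DESeq2 gave no adjusted p. In all 3 genes W1 stood far above the other libraries.

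IM4, a Daisho antifungal peptide, had 5.37, 0, 6.54 and 0 normalized counts in sev14, against 88.5, 8.04, 22.4 and 12.2 in w1118. The genotypes did not overlap, S4 and W2 lying closest (log2 difference -3.09, adjusted p = 0.141 by limma and 0.0488 by DESeq2). IM14, the other Daisho gene, had 2.66 in W1 and 0 elsewhere. IM18 had 2.09 in S2 alone in sev14, against 8.04 in W2 and 9.99 in W6. Neither reached the limit for testing.

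Summed over the 7 IM genes, the libraries held 21.5, 6.28, 7.36 and 0 normalized counts in sev14, against 686, 113, 44.8 and 84.3 in w1118. That is 35 reads in sev14 and 1003 in w1118, and 77.3% of the control reads were in W1. The sums did not overlap between genotypes with or without W1. Without W1, the limma log2 differences were -2.11 for IM1, -1.50 for IM2, -1.82 for IM23, -4.17 for IM3 and -2.42 for IM4, none past the threshold. The table holds 7 bomanins under other symbols, given here as values only. CG5791, now BomBc3, had 2.15, 1.05, 0 and 0 in sev14 and 25.7, 16.1, 0 and 13.3 in w1118, and CG16836, now BomT2, had 0, 2.09, 0 and 0 in sev14 and 15.9, 12.1, 4.48 and 0 in w1118. CG18107, CG15065 and CG15067 were above 0 mainly or only in W1 among the controls, CG15068 had a single read, in W2, and CG5778 had none. CG16712, now IM33, had 63.4, 63.9, 31.9 and 11.4 in sev14 and 92.1, 108, 52.7 and 32.2 in w1118, which overlap.

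TotF rose in sev14, with the smallest limma adjusted p of the 36 tested members. It encodes a secreted Turandot stress protein. TotF (FBgn0044811, 2L from 19911815 to 19912377) had 204, 201, 76.8 and 92.6 normalized counts in S1, S2, S4 and S5, against 0.885 in W1 and 0 in W2, W5 and W6. The sev14 libraries were all far above the controls. The 573 reads in sev14 and 1 read in w1118 put sev14 540-fold higher, and the 95% interval from counting error ran from 96.6 to 21370. The log2 difference was 6.81 ± 0.57 (SE; limma adjusted p = 0.000126), and TotF passed under all 19 alternative settings. It overlaps sick on the opposite strand, whose means were 5297 in sev14 and 5657 in w1118.

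Victoria, now TotE, is the gene next to TotF, from 19912938 to 19913516, and lies outside the chosen symbols. It had 16.1, 2.09, 2.45 and 0.954 normalized counts in S1, S2, S4 and S5, against 0 in all 4 controls. TotX (3R from 20904917 to 20905518) had 17.2, 4.19, 10.6 and 8.59 in sev14 and 0 in all 4 controls. These 42 reads against 0 give a ratio of 13.1 with the floor of 3 reads. The TotX difference of 3.34 ± 0.89 (SE) had an adjusted p of 0.0684 by limma, 0.0697 by edgeR and 0.00721 by DESeq2, and TotX overlaps CG5621 on the opposite strand, with means of 25.0 in sev14 and 7.87 in w1118.

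TotA, the Turandot gene best known from bacterial infection and heat stress, had the highest mean count of the 7. It had 378, 204, 153 and 147 normalized counts in S1, S2, S4 and S5, against 325, 441, 212 and 158 in W1, W2, W5 and W6, and the genotypes overlapped (log2 difference -0.36, limma adjusted p = 0.719). TotB had 173, 153, 66.2 and 59.2 in sev14 and 136, 121, 47.1 and 41.1 in w1118 (limma adjusted p = 0.770). TotZ had 35.5, 37.7, 12.3 and 22.9 in sev14 and 13.3, 21.1, 19.0 and 36.6 in w1118 (limma adjusted p = 0.888). TotC and TotM were not tested, with at most 5.23 in a sev14 library and 25.5 in a control library.

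**Figure D3:**
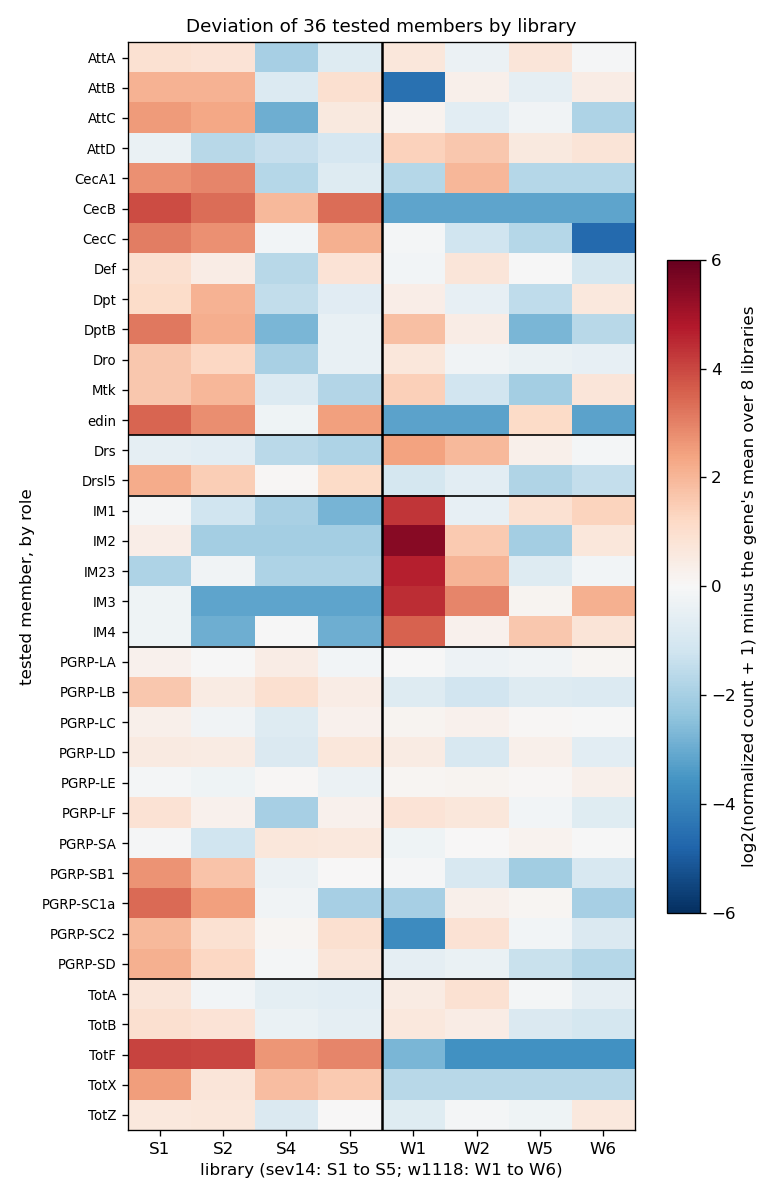
Each tested member's log2(normalized count + 1) minus its mean over the 8 libraries, by role down the page and by library across it, sev14 left of the line and w1118 right; red is above and blue below the gene's mean. S1 and S2 are red over most antimicrobial peptides. S4 is blue over the antimicrobial peptides except CecB, where it is red, and W1 is the darkest red over the 5 IM peptides.

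Within a genotype, a single library was often the highest or lowest. Among the 4 sev14 libraries, S1 was the highest for 25 of 36 tested members and S4 the lowest for 23, ties counted. Among antimicrobial peptides S1 was the highest for 9 of 13 and S4 the lowest for 11. Among the controls, W1 was the highest for 16 of the 34 tested members not at 0 in all controls, and for 5 of 5 IM peptides. The mean deviation of the 13 antimicrobial peptides on the log2 scale was 2.06, 1.80, -1.23 and 0.33 in S1, S2, S4 and S5, against -0.48, -0.41, -0.89 and -1.18 in W1, W2, W5 and W6. S4 was thus below every control for this role as a whole, although CecB in S4 was above every control. The PGRPs as a whole also overlapped, with S4 at -0.19 and W2 at -0.13.

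Markers of other cell types also differed between libraries. Beside the counts of called markers, limma called 2.38% of all genes tested higher and 1.82% lower. The shares were 2.24% and 1.53% by edgeR, 4.94% and 3.38% by DESeq2, and 16.7% at an unadjusted limma p under 0.05. Over 9 tested fat body markers the mean deviation was 1.09, 0.63, -0.29 and -0.01 in S1, S2, S4 and S5, against -0.34, -0.00137, -0.33 and -0.76 in W1, W2, W5 and W6. The sev14 libraries thus stood in the same order as for the antimicrobial peptides, while among the controls W1 and W5 changed places. That sev14 order was not particular to fat body markers. It also held for the Drosomycin family, the PGRPs, the Turandot genes and the list of complement-like proteins, lysozymes and melanisation. Summed fat body marker counts ranged from 26115 to 76263 in sev14 and from 18440 to 46157 in w1118, and 1 of the 9 rose, the larval serum protein gene Lsp1alpha (log2 difference 2.33, limma adjusted p = 0.00299). DESeq2 called 3, adding Lsp1beta and Fbp2 as higher. The differences of Fbp1, Yp2 and Yp3 were negative, at -0.098, -0.39 and -0.029, and those of the other tested fat body markers were positive. Over 9 tested haemocyte markers the deviations were 0.36, 0.33, 0.00 and -0.00443 in S1, S2, S4 and S5, against -0.28, 0.16, -0.16 and -0.40 in w1118, none was called by limma, edgeR or DESeq2, and the sums of 6571 to 13659 in sev14 and 7698 to 12407 in w1118 overlapped. Over 7 tracheal markers limma called none, edgeR 2 (serp and verm) and DESeq2 3 (also btl), all higher in sev14. Of these 7, 4 had an unadjusted limma p under 0.05, the median difference was 1.61, and the sums were 12383 to 20389 in sev14 and 5087 to 12960 in w1118, which overlap. The tracheal mean deviation was 1.35, 1.30, 0.55 and -0.57 in S1, S2, S4 and S5, against -0.66, -0.92, -0.12 and -0.94 in W1, W2, W5 and W6. S5 thus lay below W5. The difference of bnl was negative, at -0.29, and those of the other tracheal markers were positive. Of 12 fat body markers listed, 11 were found by symbol. No marker found on these 3 lists was at 0 in all libraries, although the haemocyte marker He averaged 0.262 in sev14 and 0 in w1118. Their part in the members' differences was not tested. The 12 retina markers held sums of 48801 to 74249 in sev14 and 41617 to 60624 in w1118, with none called by the 3 tools. Of 8 glial markers 2 fell, wrapper and Mdr65, and DESeq2 called 4, adding repo as lower and nrv2 as higher. None of 8 brain neuron markers was called by the 3 tools, but they spread widely by library. Their mean deviation was -0.04, 0.98, -1.24 and -0.28 in S1, S2, S4 and S5, against 0.74, 0.86, -0.21 and -0.80 in W1, W2, W5 and W6. S4 was the lowest, as for the antimicrobial peptides, but S2 was the highest, where S1 was for those peptides. W2 and W1 were the highest controls, in the reverse of their order for Drs, whose lowest sev14 library was S5.

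**Figure D4:**
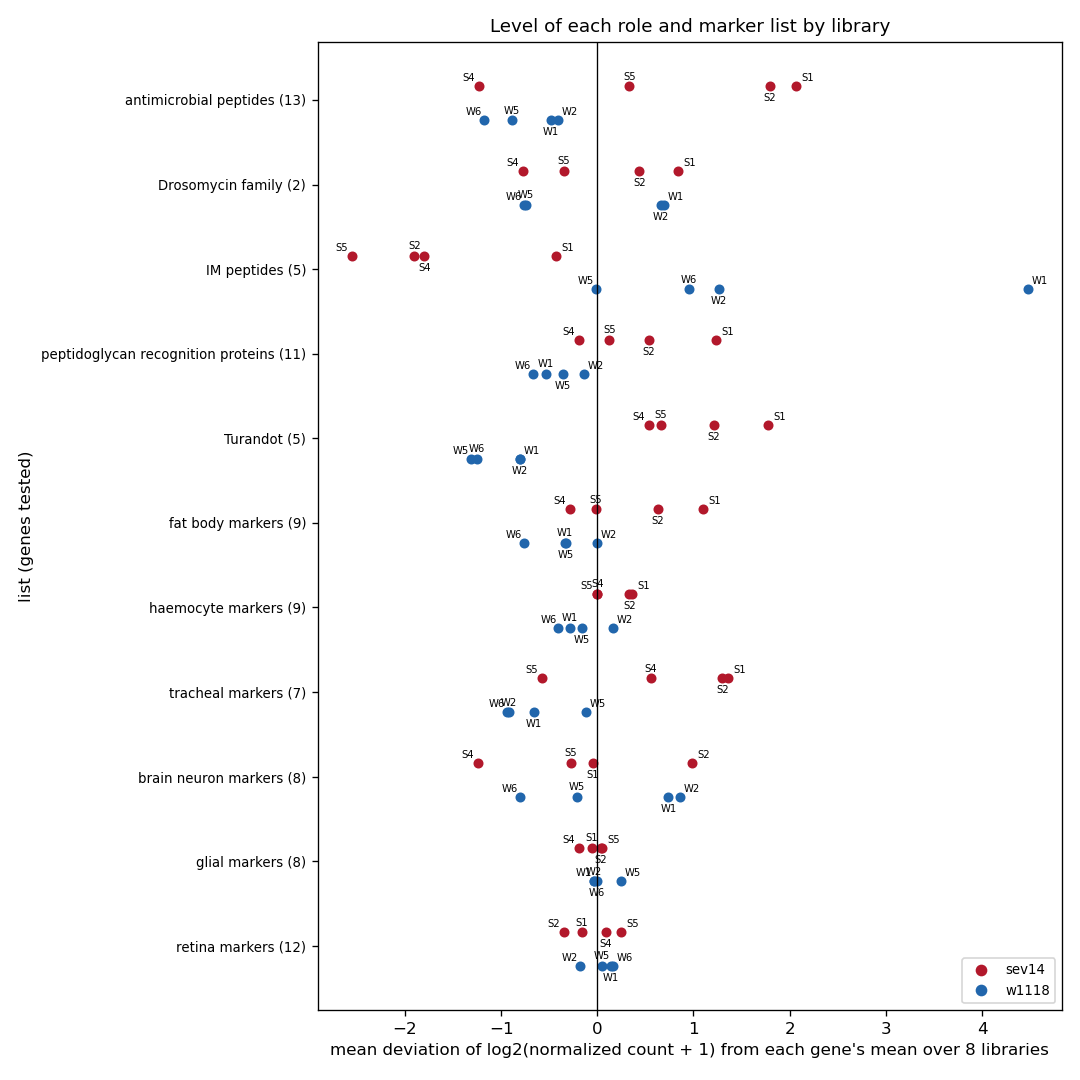
The mean deviation of log2(normalized count + 1) from each gene's mean over 8 libraries, for each role and marker list, with sev14 libraries above w1118 libraries in each row. The antimicrobial peptides, Drosomycin family, PGRPs, Turandot genes, fat body markers and brain neuron markers have S1 and S2 at the right and S4 at the left of sev14. W1 stands alone for the IM peptides at 4.48. The Turandot means separate by genotype with TotF and TotX at or near 0 in all controls, while TotA, TotB and TotZ overlap.

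The pathway components around these genes were mostly not called. For the counts on these lists, limma called 2.38% of all genes tested higher and 1.82% lower. The shares were 2.24% and 1.53% by edgeR and 4.94% and 3.38% by DESeq2. An unadjusted limma p under 0.05 was found for 16.7% of all genes tested. Of 16 tested Imd pathway genes, none was called by limma or edgeR and 1 by DESeq2, 1 had an unadjusted p under 0.05, and the median difference was -0.04, against 0.00 over all genes. The smallest p was that of akirin, a nuclear cofactor of Relish, with means of 1752 ± 138 in sev14 and 2200 ± 108 in w1118 (SD, n = 4 each; log2 difference -0.33, limma adjusted p = 0.129). The ubiquitin-conjugating enzyme gene ben came next (log2 difference -0.20, limma adjusted p = 0.356). The NF-kappaB factor gene Rel had a difference of 0.18 (limma adjusted p = 0.632). The Imd inhibitor gene pirk was not tested, at 0 in all sev14 libraries and 3.01 in W2 and 1.12 in W5.

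Of 20 Toll pathway genes, 1 rose and none fell by limma, edgeR called the same gene, and 8 had an unadjusted limma p under 0.05, with a median difference of 0.01. DESeq2 called 4, with spirit and spz higher in sev14 and nec and the protease gene Hayan lower (Hayan log2 difference -0.89, adjusted p = 0.0747 by limma and 0.0236 by DESeq2). The gene that rose was spirit, a serine protease of the cascade upstream of Toll. It had 1407, 985, 768 and 935 normalized counts in S1, S2, S4 and S5, against 514, 631, 522 and 434 in W1, W2, W5 and W6, without overlap (log2 difference 0.94 ± 0.19 SE, limma adjusted p = 0.0234). The Toll ligand gene spz had 299, 237, 244 and 176 in sev14 and 104, 142, 149 and 133 in w1118, without overlap (log2 difference 0.84, limma adjusted p = 0.0625). The serpin gene nec, an inhibitor of the cascade, had 421, 313, 379 and 379 in sev14 and 500, 576, 679 and 529 in w1118, also without overlap (log2 difference -0.61, limma adjusted p = 0.0539). The differences of the NF-kappaB factor genes were 0.56 for dl (limma adjusted p = 0.172) and -0.22 for Dif (limma adjusted p = 0.620).

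Of 8 tested JAK-STAT genes, none was called by limma and 1, ken, had an unadjusted p under 0.05, with a median of -0.06. The transcriptional repressor gene ken had a difference of 0.49 (limma adjusted p = 0.144), the SUMO ligase gene Su(var)2-10 one of -0.23 (limma adjusted p = 0.391) and the transcription factor gene Stat92E one of 0.12 (limma adjusted p = 0.728). The cytokine genes upd1, upd2 and upd3 were not tested and were at 0 in all controls. The highest of their sev14 values were 11.5 for upd1 in S2, 1.07 for upd2 in S1 and 2.45 for upd3 in S4. Of 11 MAP kinase stress genes none was called by limma and 2 had an unadjusted p under 0.05, with a median of 0.13. The kinase gene Mekk1, which is needed for Turandot induction, had means of 1808 ± 148 in sev14 and 1334 ± 118 in w1118 (SD, n = 4 each), a difference of 0.44 and adjusted p values of 0.0603 by limma and 0.00995 by DESeq2. The kinase gene slpr had a difference of 0.41 (limma adjusted p = 0.142).

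Among 18 tested genes of complement-like proteins, lysozymes and melanisation, 2 rose and none fell by limma, edgeR called 2, and 7 had an unadjusted limma p under 0.05, with a median of 0.58. DESeq2 called 5, with 4 higher in sev14 and 1 lower, the thioester protein gene Tep1, which had means of 30.8 ± 13.3 in sev14 and 80.8 ± 32.1 in w1118 (SD, n = 4 each; log2 difference -1.41, adjusted p = 0.109 by limma and 0.0421 by DESeq2). Sp7, a serine protease that activates melanisation, had 586, 387, 342 and 134 normalized counts in S1, S2, S4 and S5, against 51.4, 85.4, 85.2 and 26.6 in W1, W2, W5 and W6 (log2 difference 2.48 ± 0.49 SE, limma adjusted p = 0.0199). Tep3, a thioester protein related to complement, had 225, 154, 61.3 and 114 in sev14 and 54.9, 32.2, 24.6 and 31.1 in w1118 (log2 difference 1.84 ± 0.42 SE, limma adjusted p = 0.0401). Both were above the controls in all sev14 libraries. LysP was at 0 in all libraries.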

How the data were processed

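The members and gene lists were chosen with earlier results of these data known. Per the labels, polyadenylated RNA of pooled retinas was sequenced on a MiSeq with paired ends. The builds dm6 and BDGP6 stand in the submitters' processing notes beside DESeq2 1.32.0, RSEM 1.2.31, HISAT2 2.0.3, cutadapt 1.9.1 and FastQC 0.11.4. The sources used here do not say whether counting used strand, and 11 members overlap another gene.

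The deposited signal per gene is a normalized count, which the authors made by dividing counts by 1 factor per library. Dividing by the value of 1 read gave whole reads within 0.05 for 99.99% to 100.0% of values above 0. The authors' deposited log2 fold change, score and p-value per gene were used only for comparison. Coordinates are those of the deposited table, and 45 of the 46 members were found in the Ensembl BDGP6 annotation, all at the same place. Dates had replaced 5 symbols, none a member's. Columns were assigned to genotypes by the letters of their names and do not carry the titles' replicate numbers. Replicates differed by more than sampling noise, with a chi-square between 46.0 and 415.5 times its degrees of freedom.

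The 10192 genes whose mean reached 5 normalized counts entered limma 3.58.1 (R 4.3.3) as log2(normalized count + 1). Its trend option was on, tests were 2-sided, and the Benjamini-Hochberg adjustment ran over these genes. On recovered reads, edgeR 4.0.16 and DESeq2 1.42.0 were alternatives. Others were scaling by TMM or total reads, pseudocounts of 0.5 and 5, no filter or one of 20, a replicate block, and leaving out libraries. The scripts were tested on simulated data. Full values are given for called members, for members whose genotypes do not overlap or that are at 0 in 1 genotype, and for the highest mean of each role; some others were added after their values were seen. Of each pathway list the called genes and the 2 of smallest p are named, with a few key components added after their values were seen. Counting intervals cover counting error only, and floors cover that of the genotype without reads only.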

Additional observations from a re-analysis of the deposited data

Results flagged for a closer look

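Within each genotype the highest or lowest library was compared with the others by Dixon's test, over 70 groups of 4 libraries. It marked 11, in 9 genes, with 3 in sev14 and 8 in w1118, of which 5 were W1. In 6 of the 11 the other 3 libraries were at 0, where the test marks any value above 0, so the chance rate of about 1 in 20 groups is no measure for these counts. Among the bomanins, W1 stood apart at 138 normalized counts for IM1 (other controls 4.02 to 16.6), 176 for IM2 (0 to 11.1) and 90.3 for IM23 (1.12 to 14.1). In sev14, 1 library held the only reads of IM2 (4.30 in S1), IM23 (2.09 in S2) and IM3 (6.45 in S1). For Dro, W1 was at 107 (other controls 46.6 to 56.3). Among the controls, the only reads of CecA1 were in W2 (12.1), those of edin in W5 (19.0) and those of TotF in W1 (0.885). For PGRP-LB, W2 was at 83.4 (other controls 107 to 111).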

How the results depend on the processing

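CecB, PGRP-LB and TotF kept their calls under all 19 alternatives. AttD and Drsl5 kept theirs under 18, and IM3 under 9. Members higher in sev14 numbered 4, against 8 by DESeq2, 6 without W6 and S4, 7 with a replicate block on those same 6 libraries, and 4 to 7 on leaving out 1 library, the 7 being without S4. Members lower numbered 2, against 6 by DESeq2, 1 (AttD) with a filter of 20, 1 (AttD) without W6 and S4, and 1 to 2 on leaving out 1 library. Without S2 and S5, limma called 0 members lower, with log2 differences of -2.001 for AttD (adjusted p = 0.0590) and -4.12 for IM3 (adjusted p = 0.154), against -2.21 and -4.84 with all 8 libraries. Over all genes 243 were higher, against 503 by DESeq2, 144 without S2 and S5, 156 without W6 and S4, and 142 to 251 on leaving out 1 library, lowest without S1. The 186 lower genes became 344 by DESeq2, 105 without W6 and S4, and 110 to 191 on leaving out 1 library, with 120, 116, 110 and 113 without W1, W2, W5 and W6. Total-read scaling moved the median of all genes to -0.14 and gave 178 higher and 268 lower genes. The causes were not tested.

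The block by column number left out S4 and W6 and gave 187 higher and 127 lower genes. The same 6 libraries without a block gave 156 higher and 105 lower. Same-numbered libraries correlated at 0.0869 (S1 and W1), 0.19 (S2 and W2) and 0.0625 (S5 and W5) in their deviations, and S4 with W6 at 0.387. These correlations cannot decide whether libraries with the same number were handled together, which the labels do not say. In the block fit 7 members were higher, among them PGRP-SD, CecC and PGRP-SB1, and 3 lower.

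Differences of 9 members that were called nowhere changed sign. On leaving out 1 library the log2 range was -0.89 to 0.075 for AttA, -0.040 to 0.87 for Def, -0.099 to 1.09 for Dpt, -0.28 to 0.90 for Dro, -0.088 to 1.18 for Mtk, -0.35 to 0.0021 for PGRP-LC, -0.65 to 0.31 for PGRP-LF and -0.22 to 0.41 for PGRP-SA. Without S2 and S5 the difference was -0.23 for Def, -0.068 for Dro and -0.0063 for TotZ. It was 0.021 for PGRP-LF and -0.23 for PGRP-SA both with the replicate block and without W6 and S4, and for PGRP-SA -0.0046 with TMM scaling and -0.13 with total-read scaling.

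Members with few reads (most IM peptides, TotX, CecA1) are limited by depth, and a value of 0 does not show absence.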

Other observations

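The crystal cell genes PPO1 and PPO2, whose prophenoloxidases carry out melanisation, stood apart in 1 control library. PPO1 had 0, 0, 0.818 and 0 normalized counts in S1, S2, S4 and S5, against 0, 257, 4.48 and 8.88 in W1, W2, W5 and W6 (limma adjusted p = 0.329). PPO2 had 4.30, 5.23, 0 and 0 in the sev14 libraries, against 0, 313, 5.60 and 0 in the control libraries (limma adjusted p = 0.769). W2, which holds nearly all of these reads, was not the control library with the highest IM peptides, which was W1. Both genes were picked out after their values had been seen.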
